A study of Canis lupus familiaris with 8 samples.

Results

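The genes described here are the components of the NF-κB pathway and the genes through which it limits itself, 39 symbols taken from a fixed list of subunits, inhibitors, kinases, adaptors, feedback proteins and induced targets. They were found by gene symbol in count tables of blood mononuclear cells from dogs, where 37 of the 39 had a row among the 35048 genes listed. TRAF1 and IKBKG had no row under those symbols and were not analysed here. All 37 passed the filter on low counts, with at least 64 counts in every library.

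The study set obese dogs against normal dogs. The obese group held 5 dogs of several breeds: dog 1 was a Dachshund, dog 2 a Chihuahua, dogs 3 and 4 were Labrador retrievers and dog 5 was a Welsh Corgi. The 3 normal dogs were Beagles, so body condition and breed cannot be told apart in any comparison. No treatment, sex or age is given in the labels used here, and each library is named as a separate dog. RNA was counted from 3′ tags, reads near the poly(A) end of a transcript, with 10264202 to 14910982 counts per library. Levels are in CPM, a count scaled to a common library size, and since a tag library counts each transcript once with little dependence on its length, levels of different genes are set side by side on this scale.

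NF-κB is a family of paired transcription factors built from Rel proteins and held in the cytoplasm by inhibitors called IκB. Signals from Toll-like and IL-1 receptors, TNF family receptors and antigen receptors pass through separate adaptors to the IκB kinases, which mark the inhibitors for destruction and release the factor into the nucleus. Among the genes it then switches on are its own inhibitors, IκBα (NFKBIA) and A20 (TNFAIP3), so the pathway turns itself off. In blood, monocytes and neutrophils respond in this way to microbial products, and lymphocytes to antigen and to TNF family ligands.

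No gene of the list passed the threshold between obese and normal dogs. Of 20632 genes tested by edgeR's quasi-likelihood test, 48 (0.233%) had an adjusted p under 0.05, and of the 37 pathway genes 0 did. At an unadjusted p under 0.05 there were 6 pathway genes, or 16.2%, close to the 15.7% of all genes. The 6 were NFKBIA, IRAK2, RIPK2, CD83 and BCL10, which had lower means in the obese dogs, and TRAF5, which had a higher mean. In 5 pathway genes every obese dog was below every normal dog, 13.5% of the list where 5.16% of all genes had that order. In 0 pathway genes was every obese dog above every normal dog, against 5.75% of all genes. In either order the groups did not overlap in 13.5% of the list and in 10.9% of all genes. Of the pathway genes 24 had a log2 difference, obese minus normal in the fit, above 0 and 13 below. That is 64.9% above 0, where 55.3% of all genes were. The median log2 difference was 0.06 over the list and 0.09 over all genes. With upper-quartile scaling both medians turned negative, to −0.07 and −0.03. The values ran from −1.83 for NFKBIA to 1.53 for TRAF5, and the adjusted p-values from 0.169 to 0.98 (edgeR).

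**Figure D1:**
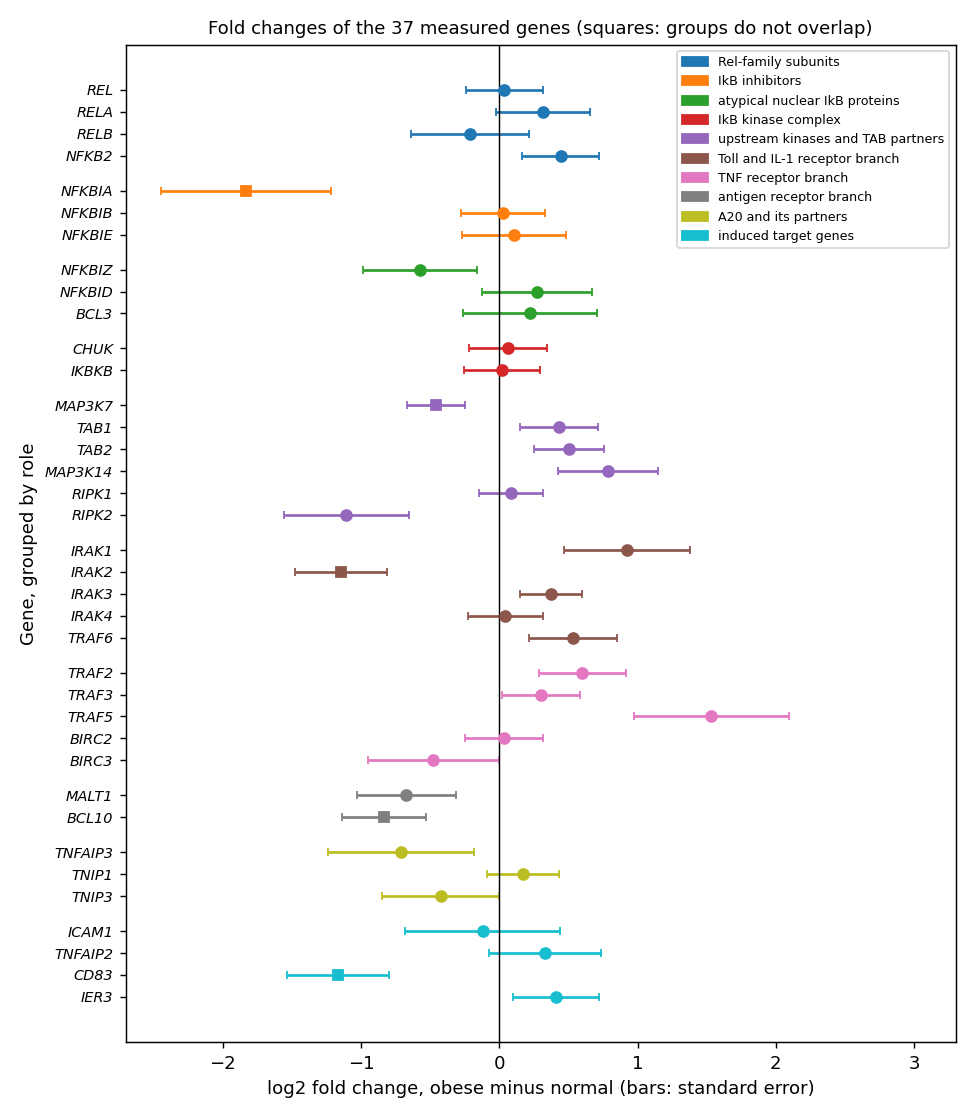
Log2 difference, obese minus normal, of the 37 measured NF-κB pathway genes on the horizontal axis, grouped by role on the vertical axis, with bars for the standard error. Squares mark the 5 genes whose groups do not overlap, all on the negative side, and none of the 37 passed the threshold.

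Obese dog 3 stood apart from the other obese dogs in its cell type markers: the summed level of 14 monocyte marker genes was 3472 CPM in that dog, 1009 to 1364 CPM in the other 4 obese dogs and 2986 to 4332 CPM in the normal dogs. The 15 neutrophil marker genes summed to 6375 CPM in obese dog 3, 361 to 1144 CPM in the other obese dogs and 1606 to 6744 CPM in the normal dogs. All 14 and all 15 of these genes were detected. S100A12 and VCAN held most of the monocyte sum of obese dog 3. The other 12 monocyte genes summed to 694 CPM in that dog, below the 774 to 1021 CPM of the other obese dogs and inside the normal range of 653 to 1185 CPM. CD14, the monocytes' lipopolysaccharide co-receptor, ran from 10.1 to 32.6 CPM among obese and from 7.19 to 28.3 CPM among normal dogs, and CXCR2, a neutrophil chemokine receptor, was at 0 in obese dogs 1 and 5 and normal dog 1. The 16 T cell marker genes, all detected, summed to 1235 to 2245 CPM in obese and 759 to 906 CPM in normal libraries, and the 10 B cell marker genes, all detected too, to 93.7 to 435 and 88.6 to 172 CPM. Without CD4, which had 586 of the 1235 CPM of obese dog 3, the other 15 T cell genes summed to 649 CPM in that dog, 1526 to 2194 CPM in the other obese dogs and 447 to 645 CPM in normal dogs. CD4 itself was at 29.9 to 51.2 CPM in the other obese dogs and 114 to 459 CPM in normal dogs. The neutrophil marker CSF3R was at 423 CPM in obese dog 3, 25.1 to 34.5 CPM in the other obese dogs and 140 to 362 CPM in normal dogs. Whether the CD4 reads came from T cells was not tested. The 10 plasma cell marker genes, all detected, summed to 147 to 263 CPM in obese and 329 to 1167 CPM in normal dogs. Platelet markers, of which 7 of 8 were detected and GP1BB was at 0 throughout, summed to 68.8 to 1247 and 9.07 to 32.2 CPM, so these 2 sums also separated the groups. The part of these markers in any difference below was not tested, and in a bulk sample fewer cells of a type and less RNA per cell cannot be told apart.

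**Figure D2:**
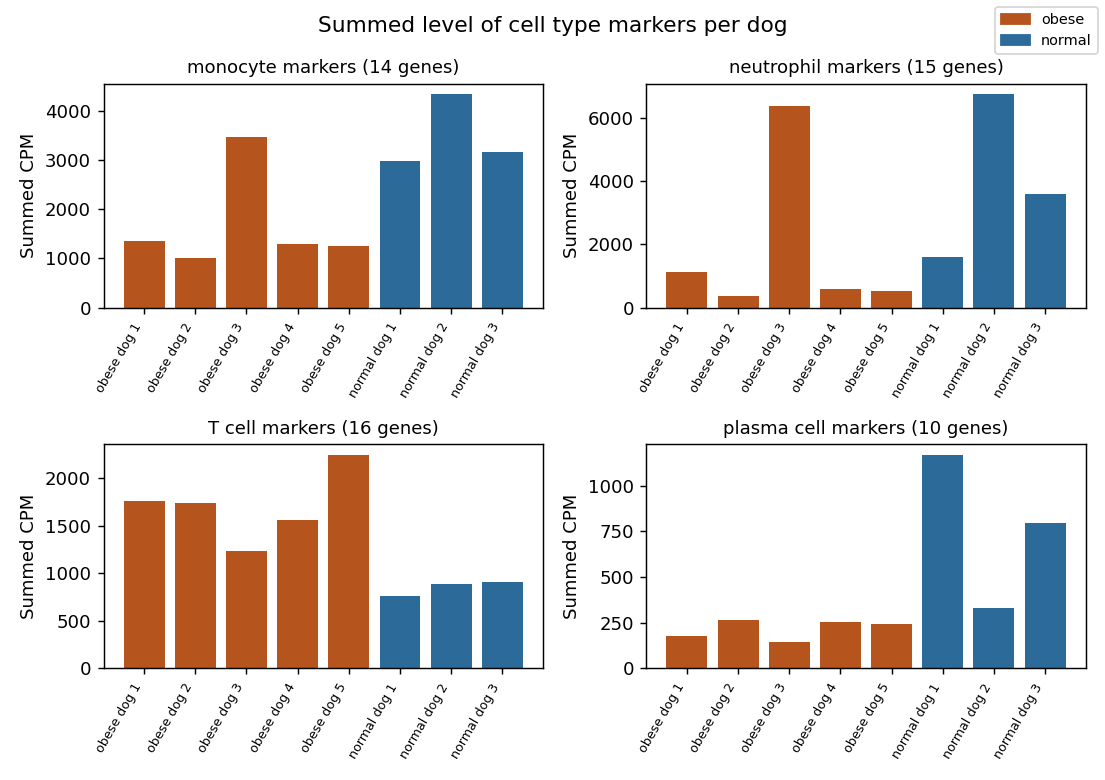
Summed CPM (vertical axes) of the markers of 4 cell types in each of the 8 libraries (horizontal axes), obese in orange and normal in blue. Obese dog 3 has 3472 CPM of monocyte markers where the other obese dogs reach at most 1364, and the T cell sums of the groups do not overlap, narrowly so in obese dog 3 once CD4 is left out (649 against at most 645 CPM).

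The Rel subunits themselves differed little in mean. REL, which encodes c-Rel, the subunit typical of lymphocytes, was the most abundant at 460 ± 134 CPM among obese (SD, n = 5) and 449 ± 41.8 CPM among normal dogs (SD, n = 3). RELB, the subunit of the non-canonical pathway, had 122 ± 61.0 against 141 ± 13.4 CPM, and RELA, the p65 subunit of the canonical factor, 108 ± 38.2 against 86.6 ± 26.7 CPM. RELA shares its locus with an uncharacterised gene that had 9245 counts over the 8 libraries where RELA had 9903, so the source of a read at this locus is uncertain. RELB was uneven within the obese group, at 161, 164 and 173 CPM in dogs 1, 2 and 3 and at 67.5 and 43.5 CPM in dogs 4 and 5, while the normal dogs ran from 125 to 149 CPM. NFKB2 encodes p100, the precursor that is cut to p52. It overlaps PSD, which had 965 counts beside 1601 of NFKB2, so its reads may be shared. It had 14.3, 19.6, 19.7, 16.95 and 13.2 CPM in obese dogs 1 to 5 and 14.2, 12.6 and 10.1 CPM in normal dogs 1 to 3. The groups overlapped only at their edges, with obese dog 5 below normal dog 1, and the log2 difference was 0.45 (standard error, SE, 0.279, edgeR adjusted p = 0.471), and 0.295 without normal dog 3.

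NFKBIA stood at the low end of the list. It encodes IκBα, the inhibitor that is destroyed and then resynthesised within each round of activation. NFKBIA had 428.5, 558, 786, 158 and 108 CPM in obese dogs 1 to 5 and 990 (normal dog 1), 2486 (normal dog 2) and 880 CPM (normal dog 3). Every obese dog was below every normal dog, but obese dog 3 came within 94.0 CPM of the lowest normal dog and the obese values spread 7.25-fold. The log2 difference was −1.83 with a standard error of 0.616, from means of 408 ± 282 CPM (SD, n = 5) and 1452 ± 897 CPM (SD, n = 3), and it did not pass (edgeR adjusted p = 0.219). Without normal dog 2 the normal mean was 935 CPM and the log2 difference −1.23 (edgeR adjusted p = 0.637). NFKBIA alone made up 5.38 to 25.0% of the counts of the 37 genes among obese and 25.7 to 46.4% among normal libraries. The summed level of the 37 genes was 2016 to 3729 CPM among obese and 3418 to 5358 CPM among normal dogs, and without NFKBIA it was 1908 to 3171 and 2538 to 2872 CPM. Leaving that 1 gene aside, the normal sums lay inside the obese range.

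Of the other IκB genes, NFKBIB and NFKBIE had close means in both groups. NFKBIB, or IκBβ, had 26.7 ± 8.08 CPM among obese and 26.1 ± 5.07 CPM among normal dogs, and NFKBIE, or IκBε, 23.8 ± 10.3 against 22.1 ± 4.92 CPM. Among the atypical IκB proteins, which act in the nucleus, NFKBIZ (IκBζ, a co-activator of secondary response genes) had 22.6, 15.7, 36.8, 9.93 and 11.7 CPM in obese dogs 1 to 5 and 25.0, 32.1 and 28.8 CPM in normal dogs 1 to 3. Obese dog 3 was above all normal dogs and the other 4 obese dogs were below them. Its log2 difference was −0.57 (SE 0.411, edgeR adjusted p = 0.533), and −0.97 without obese dog 3 (edgeR adjusted p = 0.0781). NFKBID had 25.6 ± 12.2 against 21.2 ± 4.35 CPM. It overlaps HCST, which had 1378 counts beside 2553 of NFKBID, and NFKBIB overlaps SIRT2, with 561 counts beside 2818, so their reads may be shared. BCL3, a partner of p50 and p52 dimers, ranged from 18.2 to 103 CPM among the obese dogs, a 5.69-fold spread, and only from 42.4 to 44.3 CPM among the normal dogs.

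**Figure D3:**
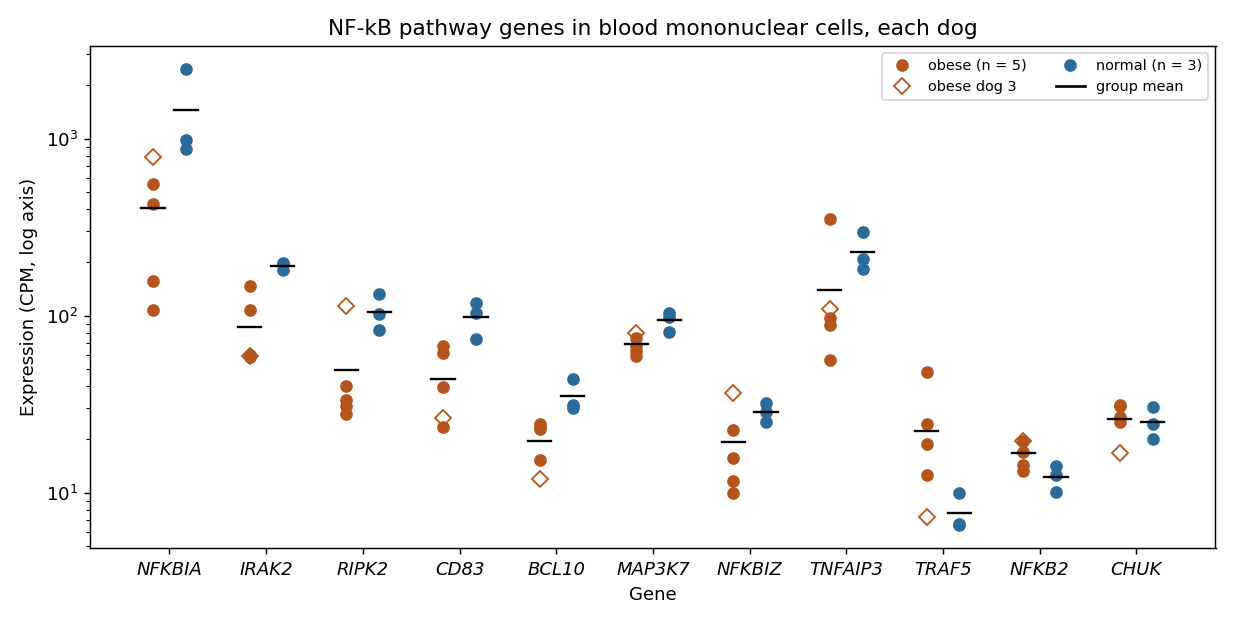
Expression in CPM (vertical axis, logarithmic) of 11 NF-κB pathway genes in each dog, obese in orange and normal in blue, with a line at each group mean. In NFKBIA, IRAK2, CD83, BCL10 and MAP3K7 every obese dog lies below every normal dog, and obese dog 3 (open diamonds) lies among the normal dogs in RIPK2 and TRAF5 and above them in NFKBIZ.

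The IκB kinases had nearly equal means. CHUK, which encodes IKKα, had 30.7, 31.3, 16.7, 26.8 and 25.2 CPM in obese dogs 1 to 5 and 24.3, 20.1 and 30.6 CPM in normal dogs 1 to 3, with full overlap. Its log2 difference was 0.06 (SE 0.284, edgeR adjusted p = 0.941), and the sign turned negative with upper-quartile scaling (−0.07). IKBKB, which encodes IKKβ, had 66.1 ± 18.7 against 65.2 ± 8.93 CPM. An uncharacterised gene overlaps IKBKB, with 3563 counts beside 6958, and another overlaps CHUK, with 557 counts beside 2812.

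Of the kinases that feed the IκB kinases, MAP3K7 and RIPK2 had lower means in the obese dogs and MAP3K14 a higher one. MAP3K7 encodes TAK1, which phosphorylates IKKβ. It had 67.3, 75.0, 79.5, 58.9 and 63.5 CPM in obese dogs 1 to 5 and 98.9, 80.8 and 104 CPM in normal dogs 1 to 3. These groups did not overlap, by a gap of 1.28 CPM between obese dog 3 and normal dog 2, and the log2 difference was −0.46 (SE 0.209, edgeR adjusted p = 0.322). TAB1 and TAB2, partners that activate TAK1, had means in the opposite order, 13.3 ± 1.87 against 9.85 ± 1.40 CPM and 221 ± 45.1 against 156 ± 28.2 CPM, with a log2 difference of 0.50 for TAB2 (edgeR adjusted p = 0.374). MAP3K14, the NF-κB inducing kinase of the non-canonical pathway, had 115 ± 50.7 CPM among obese and 67.0 ± 10.6 CPM among normal dogs (log2 difference 0.78, SE 0.362, edgeR adjusted p = 0.331). An overlapping uncharacterised gene had 3974 counts beside 10772 of MAP3K14. Obese dog 3 had 61.1 CPM of MAP3K14, within the normal range of 55.0 to 74.8 CPM, and the other obese dogs had 76.7 to 191 CPM.

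RIPK2 passes on signals from the NOD receptors for bacterial cell wall fragments. RIPK2 had 27.7, 31.0, 113, 40.0 and 33.6 CPM in obese dogs 1 to 5 and 82.7, 132 and 102 CPM in normal dogs 1 to 3. The 4 obese dogs other than dog 3 were all at 40.0 CPM or less, while obese dog 3 was among the normal dogs. Over all dogs the log2 difference was −1.11 (SE 0.452, edgeR adjusted p = 0.283), and without obese dog 3 it was −1.71 and passed (edgeR adjusted p = 0.00379). RIPK1, the kinase at the TNF receptor, had 96.6 ± 20.4 against 91.0 ± 9.46 CPM. It overlaps an uncharacterised gene with 8679 counts over the libraries beside 9944 of its own, so the source of its reads is likewise uncertain.

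In the branch from Toll-like and IL-1 receptors, IRAK2 had a lower and IRAK1 a higher mean in the obese dogs. IRAK2, which sustains signalling from these receptors, had 108, 148, 59.4, 58.4 and 59.95 CPM in obese dogs 1 to 5 and 182, 199 and 195 CPM in normal dogs 1 to 3. All obese dogs were below all normal dogs, obese dog 3 among the lowest, and the 3 normal values lay within 1.09-fold of each other. IRAK2 had the smallest p of the 37 genes, with a log2 difference of −1.15 (SE 0.336, edgeR adjusted p = 0.169), and −1.07 without obese dog 3 (edgeR adjusted p = 0.0686). IRAK1, the kinase that IRAK4 phosphorylates, had 43.5 ± 25.6 against 22.9 ± 5.92 CPM, with 85.9 CPM in obese dog 1 and 18.5 CPM in obese dog 3 (log2 difference 0.92, edgeR adjusted p = 0.36, and 0.52 without obese dog 1). IRAK4, the first kinase of the branch, had 22.7 ± 4.16 against 22.0 ± 4.68 CPM, and IRAK3, the inhibitory member, 67.8 ± 9.43 against 52.2 ± 8.0 CPM. TRAF6, the ubiquitin ligase that they engage, had 62.5 ± 21.1 against 43.1 ± 7.67 CPM. Neither IRAK3 nor TRAF6 passed, with adjusted p-values of 0.444 and 0.449 (edgeR).

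In the TNF receptor branch, TRAF5 had the highest fold change of the list. It encodes an adaptor of CD40, OX40 and related receptors on lymphocytes. TRAF5 had 12.6, 19.0, 7.26, 24.4 and 47.9 CPM in obese dogs 1 to 5 and 6.54, 9.96 and 6.63 CPM in normal dogs 1 to 3. Obese dog 3 was within the normal range and the other 4 were above it, with the highest value in obese dog 5. Among the obese dogs the T cell marker sum was also lowest in dog 3 and highest in dog 5. In dogs 1, 2 and 4 it ran in the reverse order of TRAF5, at 1759, 1745 and 1558 CPM, and the relation was not tested. The TRAF5 count in obese dog 3 was the lowest of any pathway gene in any library, 64 counts with an exact 95% Poisson interval of 49.3 to 81.7. The log2 difference was 1.53 (SE 0.559, edgeR adjusted p = 0.243), and without obese dog 3 it was 1.73 and passed (edgeR adjusted p = 0.0415). Without obese dog 5 it was 1.04 and did not pass (edgeR adjusted p = 0.37). TRAF2, the adaptor that recruits the cIAP ligases, had 19.6 ± 4.81 against 12.9 ± 2.83 CPM (log2 difference 0.60, edgeR adjusted p = 0.383), and TRAF3, which keeps MAP3K14 protein low, 132 ± 32.7 against 107 ± 24.3 CPM. BIRC2, or cIAP1, had 40.8 ± 11.2 against 39.9 ± 2.23 CPM. BIRC3, or cIAP2, itself induced by NF-κB, ran from 7.70 to 28.1 CPM in the obese and from 14.0 to 35.9 CPM in the normal dogs.

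BCL10 and MALT1 form the complex that links antigen receptors to NF-κB, and both had lower means in the obese dogs. BCL10 had 23.6, 15.3, 11.9, 24.4 and 22.9 CPM in obese dogs 1 to 5 and 31.2, 43.8 and 30.2 CPM in normal dogs 1 to 3, with no overlap. Its log2 difference was −0.84 (SE 0.303, edgeR adjusted p = 0.242). MALT1, the protease of the complex, had 148 ± 45.6 against 236 ± 113 CPM, with 172, 367 and 170 CPM in normal dogs 1 to 3. Obese dogs 2 and 5, at 191 and 174 CPM, were above normal dogs 1 and 3, and the log2 difference was −0.67 (edgeR adjusted p = 0.397), and −0.235 without normal dog 2. The T cell marker sum was higher in every obese dog, in obese dog 3 by a margin that rested on CD4. Its relation to BCL10 and MALT1 was not tested.

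TNFAIP3 encodes A20, which edits ubiquitin chains and shuts off signalling to the IκB kinases. It had 88.4, 353, 109, 96.8 and 55.9 CPM in obese dogs 1 to 5 and 210, 296 and 185 CPM in normal dogs 1 to 3. Obese dog 2 was above every normal dog and the other 4 obese dogs were below every one. The log2 difference was −0.71 (SE 0.526, edgeR adjusted p = 0.546), and without obese dog 2 it was −1.40 and did not pass either (edgeR adjusted p = 0.157). The A20 partner TNIP1 had 64.2 ± 17.6 against 57.0 ± 2.07 CPM, and TNIP3 had 10.1 ± 3.62 against 13.5 ± 5.94 CPM.

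Of the 4 induced target genes, CD83 was the one whose groups did not overlap. CD83 is a surface protein of mature dendritic cells and activated lymphocytes. It had 23.6, 61.7, 26.3, 67.6 and 39.7 CPM in obese dogs 1 to 5 and 117, 74.1 and 104 CPM in normal dogs 1 to 3. The log2 difference was −1.17 (SE 0.369, edgeR adjusted p = 0.194). The summed level of 8 dendritic cell marker genes was 132 to 315 CPM among obese and 155 to 254 CPM among normal dogs, with full overlap. IRF8 and TCF4 held most of this sum and had means in opposite order. IRF8 had 97.5 CPM among obese and 26.9 CPM among normal dogs, and TCF4 79.7 and 138 CPM. The overlap of the sums therefore does not show an equal content of dendritic cells. ICAM1, the adhesion molecule that binds leukocyte integrins, had 6.42 to 38.5 CPM among obese and 12.6 to 27.5 CPM among normal dogs. TNFAIP2 had 24.2 ± 10.2 against 19.2 ± 3.17 CPM, and IER3, an early response gene that protects cells from apoptosis, 20.9 ± 6.39 against 15.8 ± 1.93 CPM.

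The obese dogs also differed among themselves. Obese dog 2 had the highest level of all 8 libraries in 10 of the 37 genes (27.0%, where it was highest in 11.4% of all genes tested), and obese dog 5 had the lowest in 13 (35.1%, against 10.7% of all genes). Within the obese group, dogs 4 and 5 had the lowest levels in 13 of the 37 genes (35.1%, against 12.5% of all genes), a pair singled out after its values were seen. The 13 were RELA, RELB, NFKBIA, NFKBIE, NFKBIZ, BCL3, MAP3K7, IRAK3, TRAF6, BIRC2, BIRC3, TNIP3 and ICAM1. The 2 Labrador retrievers, obese dogs 3 and 4, differed from each other in NFKBIA (786 against 158 CPM), RIPK2 (113 against 40.0 CPM) and CD83 (26.3 against 67.6 CPM). Normal dog 2 was highest in 6 genes, among them NFKBIA, RIPK2, MALT1 and BCL10, which at 16.2% is near its 15.5% of all genes.

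**Figure D4:**
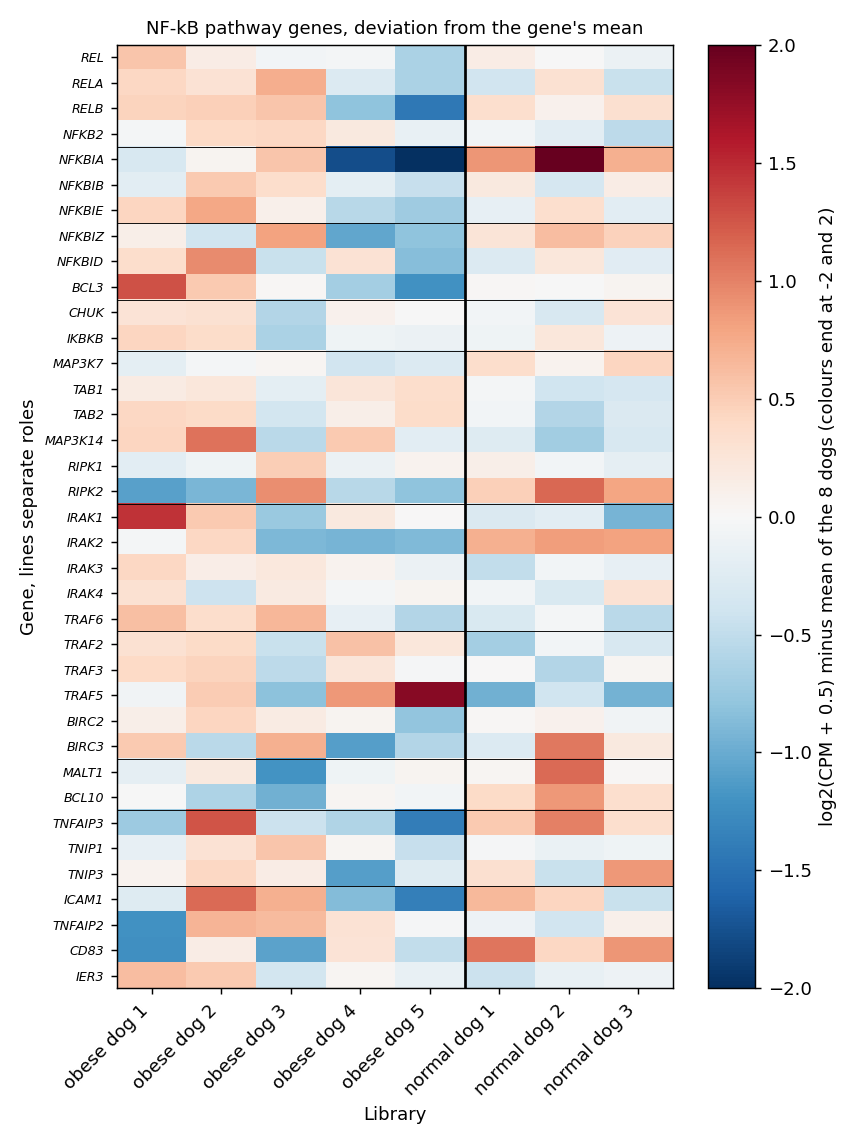
Deviation of each gene's log2(CPM + 0.5) from its mean over the 8 dogs (colour) for the 37 measured NF-κB pathway genes (rows) in the 8 libraries (columns), with a black line between obese and normal dogs. NFKBIA is lowest in obese dogs 4 and 5 and highest in normal dog 2, and RIPK2 in obese dog 3 has the colour of the normal dogs.

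Calls across the list changed when obese dog 3 was left out and with the test used. Without that dog 3 of the 37 genes passed, RIPK2 and NFKBIA lower (log2 difference −2.25 for NFKBIA, edgeR adjusted p = 0.0485) and TRAF5 higher, which is near the share of all genes called in that fit, 8.28%. Without it, 6 pathway genes (TAB2, TRAF5, MAP3K14, TRAF2, TAB1 and IRAK1) were higher in every obese than in any normal dog, against 12.2% of all genes, and 7 were lower, against 12.8%. In a limma-voom fit that weights libraries by quality, 9 of the 37 passed, where 19.1% of all genes did. NFKBIA, NFKBIZ, MAP3K7, RIPK2, IRAK2 and CD83 were lower and IRAK1, TRAF2 and TRAF5 higher. No voom fit without weights was run, so the part of the weighting in these calls was not tested. DESeq2's Wald test called 4.98% of all genes and 0 of the 37, with 7 of the 37 at an unadjusted p under 0.05, where 17.7% of all genes were. In simulated counts with the spread of these libraries, the edgeR test found 0% of genes given a 2-fold change, 18% given a 4-fold and 56% given an 8-fold change. The changed genes were drawn at random from all genes tested, at any level, so these rates are not those of the 37 genes.

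The rest of the pathway was read from a further list of 45 genes, receptors, adaptors, ubiquitin enzymes and regulators, all of which were tested. Of these 0 passed by edgeR, 5 (11.1%, against 15.7% of all genes) had an unadjusted p under 0.05 and the median log2 difference was −0.03. In either order the groups did not overlap in 6 of them, 13.3% where all genes had 10.9%. Neither share of the 45 is far from the background, and the 6 are given as values. PELI2 and PELI1, ubiquitin ligases that modify IRAK proteins, were lower in every obese dog, PELI2 at 2.04 to 10.7 CPM against 16.2 to 83.4 CPM (log2 difference −2.79, edgeR adjusted p = 0.0774) and PELI1 at 123 to 295 CPM against 329 to 850 CPM (log2 difference −1.57, edgeR adjusted p = 0.114). PELI1 overlaps an uncharacterised gene with 8672 counts over the libraries beside 33670 of its own. TANK, an adaptor that restrains TRAF signalling, had 209 to 411 CPM among obese and 511 to 541 CPM among normal dogs (edgeR adjusted p = 0.207). CARD10, a scaffold protein, was near the limit of detection, with 0 to 19 counts in the obese and 13 to 19 counts in the normal libraries. TIRAP, the adaptor that brings MYD88 to Toll-like receptors, had 17.01 to 36.3 CPM among obese and 10.6 to 15.1 CPM among normal dogs (edgeR adjusted p = 0.24). It overlaps an uncharacterised gene with 772 counts beside 2108 of its own. SHARPIN, of the linear ubiquitin ligase, had 14.5 to 19.7 against 11.04 to 13.6 CPM (edgeR adjusted p = 0.528). NFKB1, which encodes the p105 precursor of p50, had 197 ± 57.5 CPM among obese and 193 ± 9.53 CPM among normal dogs.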

How the data were processed

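The authors deposited a file of raw counts by gene symbol for each dog. RNA was extracted with Trizol and made into Lexogen QuantSeq 3′ libraries, per the labels' protocols. Bowtie2 and bedtools were used, per the submitters' processing notes, with versions, roles, genome build, annotation and strand setting not given in the sources used here. A repeated symbol was read from its row of highest mean. Counts of all 35048 genes were fitted in R 4.3.3 with edgeR 4.0.16 (filterByExpr, TMM, robust glmQLFit and glmQLFTest, Benjamini-Hochberg over 20632 genes, threshold 0.05). The SE of a log2 difference was taken from its size and its F statistic. The test was checked on simulated counts of 20632 genes, 200 of them changed. Alternatives were DESeq2 1.42.0, other scaling factors, limma 3.58.1 voom with quality weights, no filter, leaving out each dog, and a replicate block. Overlapping genes were looked up in RefSeq's table for UU_Cfam_GSD_1.0, for names only.

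Genes described dog by dog were those whose groups did not overlap and the one with the smallest p of each role. RELB, and single dogs of other genes, were added after their values were seen, as were the reduced marker sums. Of the further pathway list, genes with non-overlapping groups were named, and NFKB1 after its values were seen. The members and lists were chosen with earlier results of these data known, so no p is adjusted over a list and no list is tested. Library totals were 10264202 to 14910982 counts. The spread between dogs (common biological coefficient of variation 0.54) enters every test, and the 95% Poisson interval covers counting error only.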

Additional observations from a re-analysis of the deposited data

Results flagged for a closer look

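In the obese group 2 of the 37 pathway genes had 1 dog far from the other 4, by Dixon's ratio of the gap to the range. That is near the 1 in 20 that chance gives for normally distributed values, which CPM need not be. RIPK2 was 113 CPM in obese dog 3, with the next obese dog at 40.0 CPM. TNFAIP3 was 353 CPM in obese dog 2, with the next at 109 CPM. Of 9 marker sums, 3 had a dog apart, each time obese dog 3: the monocyte sum at 3472 CPM (next 1364 CPM), the neutrophil sum at 6375 CPM (next 1144 CPM) and the erythroid sum at 1185 CPM (next 56.8 CPM). Without S100A12 and VCAN the monocyte sum of obese dog 3 was 694 CPM, the lowest of the obese dogs.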

How the results depend on the processing

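No pathway gene passed under either other scaling, without the filter, with DESeq2 or without any dog but obese dog 3. Of the 37 genes 24 kept the sign of their log2 difference under all 14 alternatives and 13 changed it at least once, each of the 13 with a main value of at most 0.27 in size. Among genes with a printed difference this was CHUK, at −0.068 with upper-quartile factors, −0.04 with voom weights and −0.10 to 0.21 leaving out single dogs. Upper-quartile factors moved the median of all genes from 0.09 to −0.03, that of the further 45 pathway genes to −0.16, and left 1 of those 45 higher without overlap.

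Leaving out single dogs gave 0 to 661 genes higher and 2 to 1023 lower over all genes, 0 to 1 pathway genes called higher and 0 to 2 lower, and 0 to 6 with every obese dog higher. For the 45 further genes it gave 0 to 5 called lower, 2 to 5 higher without overlap and 4 to 8 lower without overlap. In each of these ranges the highest value was without obese dog 3. In that fit 8.28% of all genes were called in either direction. Without overlap, 12.2% of all genes were then higher and 12.8% lower. DESeq2's Wald test called 599 genes higher and 428 lower (4.98% of all genes together), 2 of the 45 among the latter. The voom weights were lowest for obese dog 3 (0.279) and highest for normal dog 3 (3.54). That fit called 1887 genes higher and 2055 lower (19.1% of all genes), 3 and 6 of the 37 and 3 and 6 of the 45. The cause of these shifts was not tested.

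Dogs sharing a number in the labels are different animals. Their deviations from the group means correlated at −0.03, −0.21 and 0.01, so no likeness by number was seen. Whether dogs sharing a number were processed together was not tested. With the number as a replicate block 0 genes were called higher and 0 lower, 0 of the 37 among them, with 1634 genes and 6 of the 37 at an unadjusted p under 0.05. NFKBIA was then at −1.18 and TRAF5 at 0.67 log2 units. The pathway genes had at least 64 counts in every library, and the effect of depth was not tested.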
